A study of Mus musculus with 10 samples.

Results

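Semaphorins and plexins, 10 genes in all, were examined in lymphatic endothelial cells (LEC) sorted from mouse melanomas. The genes were chosen by name, as the rows of the deposited gene table with the symbols Sema3a, Sema3d, Sema3f, Sema3g, Sema6a, Sema7a, Plxna1, Plxna2, Plxnb2 and Plxnd1, and they are 10 of 23510 genes in that table. All 10 passed the filter on low counts that left 16240 genes for testing. The cells came from 10 mice of the C57BL/6N strain that carried fragments of the MT-ret melanoma on the flank. An intraperitoneal injection of an antibody against angiopoietin-2 (anti-Ang2) was given to 5 mice and control IgG to 5 mice, and tumours were taken 12 h later. Angiopoietin-2 is a ligand that endothelial cells release and that acts on their receptor Tie2. The sources used here do not give genotype, age, antibody dose or the sorting markers. All mice carried the same tumour model, and the samples hold no LEC from tumour-free tissue. Each mouse gave 1 library from 0.5 ng of RNA, and n = 5 per group below.

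Semaphorins are guidance ligands and plexins are their receptors. The class 3 semaphorins are secreted and most of them reach plexins through the co-receptors neuropilin-1 (Nrp1) and neuropilin-2 (Nrp2), whereas classes 4 to 6 are held in the membrane and bind plexins directly. A bound plexin acts through its intracellular GTPase-activating domain on small GTPases of the Ras and Rap families and loosens integrin adhesion and the actin cytoskeleton, so that a cell or growth cone turns away. In lymphatic vessels the neuropilins are best known for another role, as Nrp2 is also a co-receptor of VEGF receptor 3 (Flt4), the main growth receptor of LEC, and in mouse Sema3a acting through Nrp1 and Plxna1 is needed for normal lymphatic valves.

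The libraries held between 38090933 and 51786044 gene counts after anti-Ang2 and between 40313230 and 83850341 after IgG. All 9 LEC markers examined (among them Prox1, Lyve1, Pdpn and Reln) were above 1 CPM (gene counts scaled to library size) in every library. Their summed level was 14950 to 19990 CPM after anti-Ang2 and 17960 to 21260 CPM after IgG, and 2 of the 9 had a positive log2 fold change. Ccl21a alone passed the test below and was lower after anti-Ang2. Pdpn did not pass, but its groups did not overlap (180 to 257 CPM after anti-Ang2, 261 to 304 CPM after IgG). RNA of other cells was also present. The sum of 12 melanoma markers was 1136 to 5594 CPM after anti-Ang2 and 269 to 1870 CPM after IgG, all 12 had a positive log2 fold change and 1 passed. The sum of 15 macrophage and monocyte markers was 143 to 372 CPM after anti-Ang2 and 79.7 to 244 CPM after IgG. Of the 15, 12 were tested, 11 of these had a positive log2 fold change and 1, Cd14, passed. No listed marker of melanoma or macrophages was at 0 in every library. The sum of 7 blood endothelial markers was 2252 to 4599 CPM after anti-Ang2 and 3370 to 5532 CPM after IgG, and 3 of the 7 had a positive log2 fold change. The sum of 5 neuron and Schwann cell markers averaged 213 CPM after anti-Ang2 and 72.9 CPM after IgG, and all 4 that were tested had a positive log2 fold change. The sum of 6 pericyte and smooth muscle markers averaged 222 CPM after anti-Ang2 and 104 CPM after IgG, and 2 of 6 had a positive log2 fold change. Much of this sum was Cspg4, at 64.4 to 274 CPM after anti-Ang2 and 17 to 104 CPM after IgG. Pdgfrb, in contrast, was at 0.115 to 7.41 CPM after anti-Ang2 and 2.24 to 16.3 CPM after IgG. The neuronal and the pericyte sums overlapped between the groups, as did those of fibroblast, T cell and keratinocyte markers, and 0 markers of these 5 lists passed. The libraries anti-Ang2 4 and 5 had the lowest quality weights (0.606 and 0.417, against 0.911 to 1.43 in the other 8), and the call of some genes below changed without them.

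After anti-Ang2, 3 of the 10 genes fell: Sema3a, Sema3d and Sema3f, which are 3 of the 4 class 3 ligands among the members. Their levels were 0.502, 0.643 and 0.685 times those after IgG, and for each of them every anti-Ang2 library lay below every IgG library. No member rose (0 at an unadjusted p under 0.05 in edgeR, and 0 after adjustment in DESeq2 and limma-voom), and the 4 plexins passed in neither direction with any of these tools. Of all genes, 2.80% of the 16240 tested were lower after anti-Ang2, 1.34% were higher and 4.13% differed in either direction (edgeR quasi-likelihood F test, Benjamini-Hochberg adjusted p under 0.05 over all tested genes). All anti-Ang2 libraries lay below all IgG libraries in 3.76% of tested genes and above them in 2.34%, and the groups did not overlap in 6.10%. The median log2 fold change was -0.14 over the 10 genes, -0.59 over the 4 class 3 members and 0.17 over the 4 plexins. Over all genes tested it was 0.01. Class 3 ligands outside the 10 genes had positive log2 fold changes that did not pass. These were Sema3b (1.425), Sema3c (1.638) and Sema3e (0.997), with edgeR adjusted p-values of 0.266, 0.506 and 0.438. Among class 4 membrane ligands, also outside the 10 genes, Sema4d (-1.13) and Sema4c (-0.52) fell, as given below. The 10 genes were chosen with earlier results of these data known, so these comparisons with all genes are descriptions and not tests. In sorted bulk RNA, fewer cells of a type and less RNA per cell cannot be told apart.

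**Figure D1:**
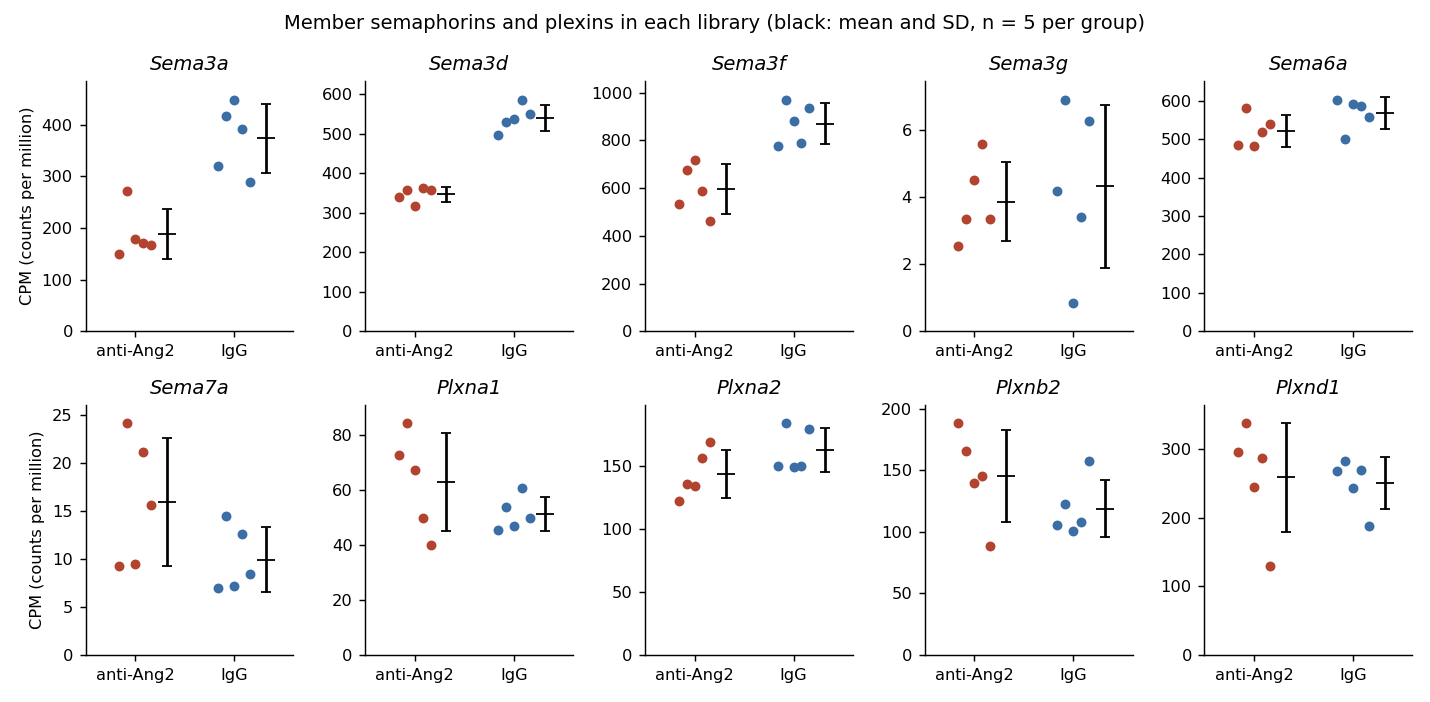
Level of each of the 10 genes in CPM (vertical axes, linear, each starting at 0) in the 5 anti-Ang2 libraries (left of each panel) and the 5 IgG libraries (right); points are libraries and bars are the group mean with its SD. The groups are separate for Sema3a, Sema3d and Sema3f and overlap in the other 7 panels.

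Sema3a is a repulsive ligand that binds Nrp1 and signals through type A plexins. It lies on the plus strand of chromosome 5 (mm10, 13125414 to 13602565), with 17 exons in its longest coding transcript. Its normalised level was 149, 272, 179, 172 and 167 CPM in the anti-Ang2 libraries, against 320, 418, 449, 392 and 290 CPM in the IgG libraries. One anti-Ang2 library (number 2) stood above the other 4 of its group and still lay below the lowest IgG library. The mean was 188 ± 48.2 CPM after anti-Ang2 and 374 ± 66.9 CPM after IgG (SD), a log2 fold change of -0.99 ± 0.17 (SE; 95% interval -1.37 to -0.62; edgeR adjusted p = 0.00793).

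Sema3d is a close relative of Sema3a that in mouse guides endothelial patterning of the pulmonary veins. Its gene precedes Sema3a on the same strand of chromosome 5 (12383385 to 12588948). Its level was 341, 357, 317, 363 and 358 CPM after anti-Ang2, against 497, 529, 537, 587 and 549 CPM after IgG. Libraries of each group were close to each other, with coefficients of variation of 5.45% after anti-Ang2 and 6.08% after IgG, whereas those of Sema3a were 25.7% after anti-Ang2 and 17.9% after IgG. The mean was 347 ± 18.9 CPM after anti-Ang2 and 540 ± 32.8 CPM after IgG, a log2 fold change of -0.64 ± 0.07 (95% interval -0.79 to -0.48; edgeR adjusted p = 0.00105).

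Sema3f binds Nrp2 and is known to repel endothelial cells. Its gene lies on the minus strand of chromosome 9 (107681500 to 107710475). Its level was 533, 677, 719, 589 and 463 CPM after anti-Ang2, against 775, 972, 880, 789 and 936 CPM after IgG. The gap between the highest anti-Ang2 and the lowest IgG library was narrow beside the spread within each group. The mean was 596 ± 104 CPM after anti-Ang2 and 870.3 ± 87 CPM after IgG, a log2 fold change of -0.55 ± 0.12 (95% interval -0.82 to -0.28; edgeR adjusted p = 0.0315). The call was lost when any of 5 single libraries was left out (anti-Ang2 1 or 4, or IgG 2, 3 or 5), with edgeR adjusted p-values of 0.0622 to 0.0837, while the log2 fold change stayed between -0.61 and -0.47 over all 10 such fits. The calls of Sema3a and Sema3d held in each of them, at edgeR adjusted p-values of up to 0.0272 for Sema3a and 0.00425 for Sema3d. Without both anti-Ang2 4 and 5, the log2 fold change was -0.92 for Sema3a (edgeR adjusted p = 0.0341), -0.69 for Sema3d (0.00465) and -0.45 for Sema3f (0.0539).

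The fourth class 3 member, Sema3g, is an Nrp2 ligand known from arterial endothelium. Its gene is on the plus strand of chromosome 14 (31217860 to 31230352). It was the lowest member, at 2.53, 3.35, 4.49, 5.57 and 3.34 CPM after anti-Ang2, against 4.16, 6.89, 0.826, 3.39 and 6.27 CPM after IgG. These ranges overlapped throughout, and the fold change had a wide interval (log2 fold change -0.16 ± 0.46, 95% interval -1.17 to 0.85; edgeR adjusted p = 0.905). A change of the size of that of Sema3a lay within this interval and could not be resolved at 34 to 571 counts per library.

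The fall of the 3 ligands was examined beside the other-cell RNA. The melanoma sums of anti-Ang2 4 and 5 (1722 and 1136 CPM) lay within the IgG range, below those of IgG 2 and 4 (1757 and 1870 CPM). Between anti-Ang2 4 and 5 and all 5 IgG libraries, the log2 fold change was -1.15 for Sema3a (edgeR adjusted p = 0.0378), -0.59 for Sema3d (0.0355) and -0.74 for Sema3f (0.0465). With the melanoma sum as a covariate the log2 fold changes were -1.08 for Sema3a, -0.64 for Sema3d and -0.69 for Sema3f, and of the 3 Sema3d still passed (edgeR adjusted p 0.0772, 0.0231 and 0.109 in that order). With the macrophage sum as a covariate they were -0.86, -0.55 and -0.55 and none passed (edgeR adjusted p 0.24, 0.0768 and 0.357). With Cd14 taken out of that sum, an alternative added after seeing the data, they were -0.87, -0.58 and -0.55 and Sema3d passed (edgeR adjusted p 0.0673, 0.0131 and 0.153).

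Sema3d and Sema3a are neighbours. The space between the ends of their gene models is 536.5 kb and holds 5 annotated genes, 0 of which are protein-coding and 0 of which passed the filter. Further along the same stretch of chromosome 5, neither Sema3e nor Sema3c passed the test, nor did Hgf, the ligand of the receptor Met, at 16.5 CPM after anti-Ang2 and 22.1 CPM after IgG (edgeR adjusted p = 0.457). A short transcript of unproven coding status inside the Sema3d span, Gm42909, averaged 3.14 CPM after anti-Ang2 and 6.31 CPM after IgG (log2 fold change -1.01 ± 0.25; edgeR adjusted p = 0.0472). It is on the same strand as Sema3d, shares 0 exon bases with it and was named after its values were seen.

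The promoter windows of Sema3a, Sema3d and Sema3g, from a table of RefSeq (GRCm38.p6) promoters, and of the co-receptor Nrp2, are shown because Sema3a, Sema3d and Nrp2 fell and Sema3g did not pass. Each holds 250 bases before to 50 after the annotated start, on the plus strand, with CpG dinucleotides in capitals. The windows are at chr5:13396534-13396833 for Sema3a, chr5:12382916-12383215 for Sema3d, chr14:31217623-31217922 for Sema3g and chr1:62703067-62703366 for Nrp2. The RefSeq start of Sema3a lies inside the longer gene model given above.
Sema3a: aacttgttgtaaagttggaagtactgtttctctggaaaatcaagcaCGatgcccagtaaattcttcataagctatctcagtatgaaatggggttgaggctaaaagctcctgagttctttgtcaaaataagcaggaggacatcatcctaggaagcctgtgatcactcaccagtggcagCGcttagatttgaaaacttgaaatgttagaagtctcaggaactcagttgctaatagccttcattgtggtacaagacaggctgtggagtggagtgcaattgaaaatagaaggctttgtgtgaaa
Sema3d: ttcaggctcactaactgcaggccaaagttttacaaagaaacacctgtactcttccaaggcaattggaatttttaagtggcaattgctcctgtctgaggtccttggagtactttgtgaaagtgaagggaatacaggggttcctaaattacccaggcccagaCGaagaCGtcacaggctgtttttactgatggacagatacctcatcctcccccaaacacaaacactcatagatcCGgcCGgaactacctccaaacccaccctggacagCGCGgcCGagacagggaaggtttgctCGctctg
Sema3g: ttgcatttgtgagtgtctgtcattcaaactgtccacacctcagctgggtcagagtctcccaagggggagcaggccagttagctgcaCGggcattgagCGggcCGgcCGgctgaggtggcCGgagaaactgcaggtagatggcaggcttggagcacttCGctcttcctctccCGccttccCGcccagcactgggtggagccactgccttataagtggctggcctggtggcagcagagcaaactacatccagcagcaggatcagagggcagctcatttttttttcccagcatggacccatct
Nrp2: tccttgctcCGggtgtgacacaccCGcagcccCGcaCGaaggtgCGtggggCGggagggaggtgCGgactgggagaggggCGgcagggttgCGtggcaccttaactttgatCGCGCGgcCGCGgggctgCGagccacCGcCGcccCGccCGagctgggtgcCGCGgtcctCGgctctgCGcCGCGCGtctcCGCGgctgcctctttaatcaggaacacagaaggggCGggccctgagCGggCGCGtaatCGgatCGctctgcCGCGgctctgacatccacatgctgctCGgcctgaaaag

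The Sema3a window holds 2 CpG dinucleotides at a GC content of 41.3%, and the Sema3d window 8 at 49.7%. Both are near or below the medians of 7 CpG and 52.7% over 32841 RefSeq promoter windows of the same length. The Sema3g window also holds 8 CpG, at 58.7% GC. The Nrp2 window is of another kind, with 37 CpG at 70.7% GC, so base composition differed among genes that fell. Among the other members, the Sema7a, Plxna2 and Plxnd1 windows hold 23, 25 and 23 CpG. A set of 6 motifs was searched on both strands in the windows of the 7 members matched in that table, and matches of different motifs could overlap. The SOX motif ACAATG was found in Sema3a as its reverse complement, starting 13 bases before the start, and is in 12.6% of all windows. TEAD (GGAATG, 14.7% of all windows) was found in Plxnd1. No member's window held the letters GTAAACA (FOXO, 3.65% of all windows), CCGGAAG (ETS, 8.86%), CACGTG (E-box, 7.15%) or AGATAA (bound by factors of the GATA family, 11.2%). A match of letters is a description and not a site.

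Sema6a and Sema7a are the membrane-bound ligands among the members. Sema6a, a transmembrane ligand of Plxna2 and Plxna4, lies on chromosome 18 (47235598 to 47368870, minus strand). Its level was 486, 582, 482, 518 and 539 CPM after anti-Ang2, against 603, 500.4, 593, 586 and 558 CPM after IgG. These groups overlapped, and the log2 fold change was -0.12 ± 0.08 with a 95% interval of -0.30 to 0.05 (edgeR adjusted p = 0.469). The point estimates of Sema3a, Sema3d and Sema3f lie outside that interval, which is not a test of a difference between genes. The interval of Sema3f (-0.82 to -0.28) overlaps that of Sema6a, and those of Sema3a and Sema3d do not.

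Sema7a is tethered by a GPI anchor and binds Plxnc1 and integrins that contain Itgb1. Its gene is on the plus strand of chromosome 9 (57940112 to 57962865). It was at 9.23, 24.1, 9.51, 21.1 and 15.6 CPM after anti-Ang2, against 6.96, 14.5, 7.14, 12.6 and 8.41 CPM after IgG. Its mean was higher after anti-Ang2 (15.9 ± 6.69 CPM, against 9.92 ± 3.42 CPM after IgG), but the groups overlapped and the difference did not pass (log2 fold change 0.68 ± 0.32, 95% interval -0.02 to 1.38; edgeR adjusted p = 0.29).

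Among the receptors, Plxna1 and Plxna2 carry the signal of neuropilin-bound class 3 ligands. Their genes are on chromosome 6 (89316314 to 89362620, minus strand) for Plxna1 and chromosome 1 (194618218 to 194816869, plus strand) for Plxna2. Plxna1 was at 72.7, 84.1, 67.3, 49.6 and 39.8 CPM after anti-Ang2, against 45.5, 53.7, 47, 60.8 and 49.6 CPM after IgG. The 3 anti-Ang2 libraries of highest melanoma sum were above every IgG library and anti-Ang2 5 was below every one. The log2 fold change was 0.29 ± 0.18 (95% interval -0.11 to 0.69; edgeR adjusted p = 0.455). It was 0.53 ± 0.11 without anti-Ang2 4 and 5, where it passed (edgeR adjusted p = 0.0275), and -0.21 without anti-Ang2 1, 2 and 3. An antisense gene, Gm26811, shares 970 of its exon bases, with 20 counts in all libraries against 28196 for Plxna1, and the kit does not mark the strand.

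Plxna2, which also receives Sema6a, was at 122, 136, 135, 156 and 169 CPM after anti-Ang2, against 150.2, 184, 149.6, 150.4 and 179 CPM after IgG. The groups overlapped and the log2 fold change was -0.18 ± 0.11 (95% interval -0.41 to 0.05; edgeR adjusted p = 0.417). Plxnb2, a receptor of class 4 semaphorins, was at 188, 165, 139, 145 and 88.2 CPM after anti-Ang2, against 105, 123, 101, 108 and 158 CPM after IgG, and 4 of the 5 IgG libraries were below every anti-Ang2 library but number 5. Its log2 fold change was 0.29 ± 0.19 (95% interval -0.12 to 0.70; edgeR adjusted p = 0.47). Plxnd1, the endothelial receptor that binds Sema3e without a neuropilin, was at 296, 337, 244, 286 and 129 CPM after anti-Ang2, against 268, 282, 244, 269 and 187 CPM after IgG. Its log2 fold change was 0.05 ± 0.22 (95% interval -0.42 to 0.52; edgeR adjusted p = 0.942), and 0.22 without anti-Ang2 5 (edgeR adjusted p = 0.403). In both Plxnb2 and Plxnd1, anti-Ang2 5 was the lowest of the 10 libraries. Plxnb2 lies on chromosome 15 (89155549 to 89180788) and Plxnd1 on chromosome 6 (115954811 to 115995005), both on the minus strand. None of the 4 plexins reached an unadjusted p under 0.05 in edgeR, and their changes are bounded only by these intervals.

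Levels between genes can be compared per length, as FPKM. Sema3f was the most abundant member per length in both groups, at 119 ± 18.6 FPKM after anti-Ang2 and 172 ± 13.8 FPKM after IgG. Next came Sema6a (61.9 ± 4.08 FPKM after anti-Ang2, 66.6 ± 5.89 after IgG) and Sema3d (42.2 ± 2.93 FPKM after anti-Ang2, 64.6 ± 4.11 after IgG). Among receptors Plxnd1 led, at 36.8 ± 10.7 FPKM after anti-Ang2 and 35.3 FPKM after IgG. It was followed by Plxnb2 (21.2 FPKM after anti-Ang2, 17.1 after IgG), Plxna2 (8.74 after anti-Ang2, 9.72 after IgG) and Plxna1 (7.18 after anti-Ang2, 5.83 after IgG). The lowest members were Sema7a (5.01 FPKM after anti-Ang2, 3.09 after IgG) and Sema3g (0.89 after anti-Ang2, 0.972 after IgG).

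The order of the mean levels differed between the groups for Sema3a and Plxnb2. Sema6a was above Sema3d in 5 of 5 anti-Ang2 libraries with no overlap of their ranges, and in 2 of 5 IgG libraries, where the ranges overlapped. Plxnb2 was above Sema3a in 5 of 5 anti-Ang2 libraries, while Sema3a was above Plxnb2 in 4 of 5 IgG libraries. Within a group, several neighbours in the order overlapped: Sema3d with Plxnd1, Plxnd1 with Plxnb2, Plxnb2 with Sema3a, Plxna2 with Plxna1 and Plxna1 with Sema7a after anti-Ang2, and Sema6a with Sema3d, Plxnd1 with Sema3a and Sema3a with Plxnb2 after IgG.

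**Figure D2:**
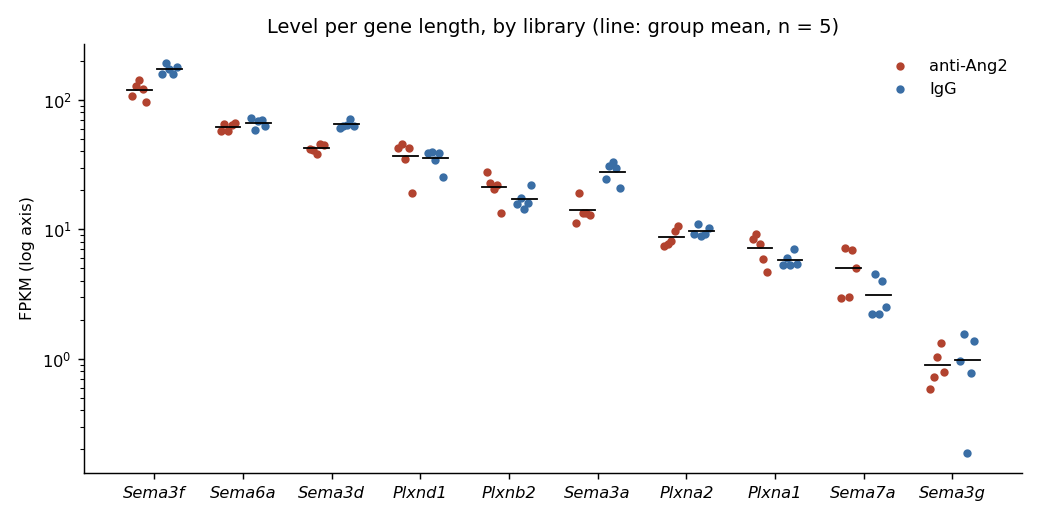
Level per length (FPKM, log scale) of the 10 genes, ordered by level, with 1 point per library in each group. Sema3f is highest and Sema3g lowest in both groups, and Sema3a, Sema3d and Sema3f are lower after anti-Ang2.

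The summed FPKM of the 6 ligands was 222 to 261 after anti-Ang2 and 319 to 349 after IgG, with no overlap, whereas that of the 4 plexins was 47.5 to 86 after anti-Ang2 and 62.8 to 74.1 after IgG. Of the ligand sum, Sema3f made up 48.9% after anti-Ang2 and 51.3% after IgG, and Sema3d made up 17.4% after anti-Ang2 and 19.3% after IgG. The share of Sema3a was 5.74% after anti-Ang2 and 8.26% after IgG, while that of Sema6a was 25.6% after anti-Ang2 and 19.9% after IgG. Ratios within a library need no scaling between libraries and are given as descriptions. The log2 ratio of Sema3a to Sema6a counts was -1.7 to -1.1 after anti-Ang2 and -0.94 to -0.26 after IgG. That of Sema3d to Sema6a was -0.71 to -0.51 after anti-Ang2 and -0.28 to 0.08 after IgG. Both sets of ratios were apart between the groups, while Sema3f to Sema6a overlapped (-0.22 to 0.58 after anti-Ang2, 0.36 to 0.96 after IgG).

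**Figure D3:**
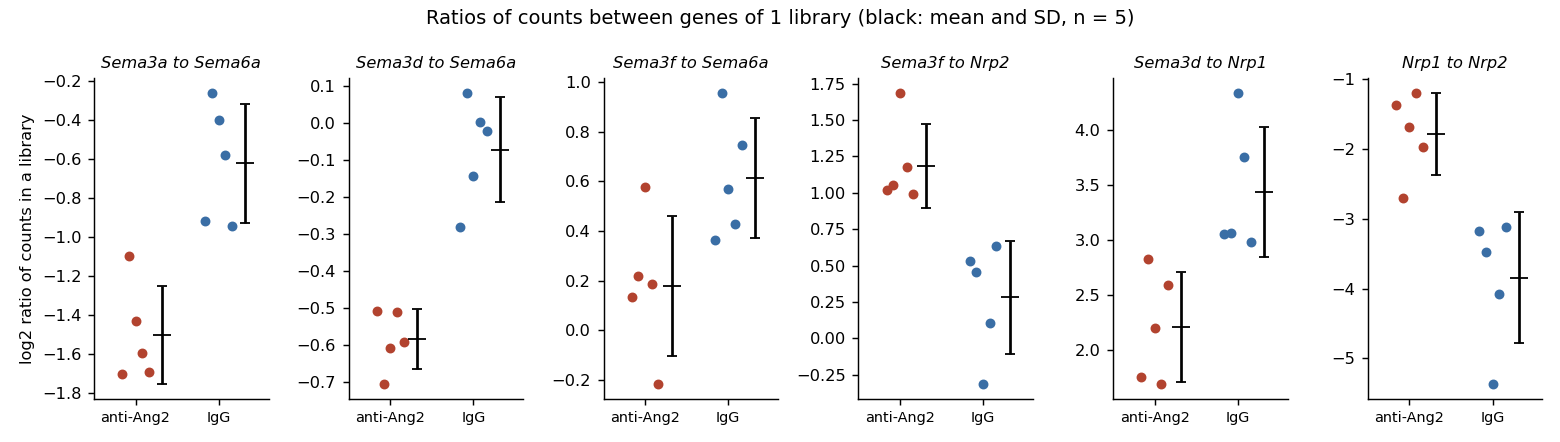
Log2 ratios of counts within each library (vertical axes, each with its own range, 1 point per library, black for the mean and SD) for 6 pairs of genes. Sema3a to Sema6a, Sema3d to Sema6a and Sema3d to Nrp1 are lower in every anti-Ang2 library than in every IgG library, Sema3f to Nrp2 and Nrp1 to Nrp2 are higher, and Sema3f to Sema6a overlaps.

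Of the neuropilins, Nrp2 fell, to 264, 327, 223, 260.2 and 233 CPM after anti-Ang2, against 537, 708, 1095, 733 and 602 CPM after IgG (log2 fold change -1.49 ± 0.18, 95% interval -1.89 to -1.09; edgeR adjusted p = 0.00142). Nrp1 was at 101, 50.2, 69.1, 113 and 59.6 CPM after anti-Ang2, against 59.7, 63.3, 26.5, 43.5 and 69.5 CPM after IgG, which overlapped (log2 fold change 0.58 ± 0.28; edgeR adjusted p = 0.306). The log2 ratio of Nrp1 to Nrp2 was -2.7 to -1.2 after anti-Ang2 and -5.37 to -3.11 after IgG. The log2 ratio of Sema3f to Nrp2, its co-receptor, was higher after anti-Ang2 (0.99 to 1.69) than after IgG (-0.32 to 0.64), and that of Sema3d to Nrp1 was lower after anti-Ang2 (1.68 to 2.83) than after IgG (2.98 to 4.34). That of Sema3a to Nrp1 overlapped (0.56 to 2.43 after anti-Ang2, 2.06 to 4.08 after IgG). So did Sema3a to Nrp2 (-0.82 to -0.27 after anti-Ang2, -1.29 to -0.75 after IgG) and Sema3g to Nrp2 (-6.7 to -5.55 after anti-Ang2, -10.37 to -6.59 after IgG).

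The other genes of the pathway numbered 67 tested, of which 6 fell and 0 rose (edgeR; 13 lower and 7 higher at an unadjusted p under 0.05). Over all 16240 genes, 2962 (18.2%) had such an unadjusted p, beside which the unadjusted counts given here should be read. After adjustment DESeq2 called 11 lower and 2 higher, and limma-voom 9 lower and 2 higher. Among the 14 other semaphorins 2 fell and none rose. Sema4d, a membrane ligand of Plxnb1, fell to 31.7 to 54.5 CPM after anti-Ang2, against 76.6 to 115 CPM after IgG (log2 fold change -1.13 ± 0.16; edgeR adjusted p = 0.00255). Sema4c, a ligand of Plxnb2, fell to 90.5 to 133 CPM after anti-Ang2, against 138 to 177 CPM after IgG (log2 fold change -0.52 ± 0.11; edgeR adjusted p = 0.0207); without anti-Ang2 1 or 3, or IgG 2 or 3, its edgeR adjusted p was 0.0507 to 0.065. Sema6b, a relative of Sema6a and the highest of these 14 per length, was at 115 to 149 CPM after anti-Ang2 and 135 to 169 CPM after IgG and did not pass (log2 fold change -0.15 ± 0.09; edgeR adjusted p = 0.446). Counting members and others, 5 of 20 semaphorins fell and 0 rose (6 at an unadjusted p under 0.05 in edgeR), and the median of their log2 fold changes was -0.14. None of 9 plexins passed (4 at an unadjusted p under 0.05 in edgeR), and their median was 0.29.

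Of the 9 tested co-receptors and non-plexin receptors, 1 fell. This was Kdr, VEGF receptor 2, which can associate with neuropilins, at 630 to 923 CPM after anti-Ang2 and 1080 to 1608 CPM after IgG (log2 fold change -0.80 ± 0.14; edgeR adjusted p = 0.00781). The integrin subunit Itgb1 was at 1315 to 1680 CPM after anti-Ang2 and 1464 to 1693 CPM after IgG, with overlap. Flt4 was at 1987 to 3282 CPM after anti-Ang2 and 2710 to 3683 CPM after IgG and did not pass in edgeR (log2 fold change -0.45 ± 0.15; edgeR adjusted p = 0.115). It passed in DESeq2 (adjusted p = 0.037) and, in edgeR, without anti-Ang2 2 (-0.61; edgeR adjusted p = 0.0104), in which Flt4 stood above the other 4 anti-Ang2 libraries. Of 37 genes that act inside the cell downstream of plexins, 2 fell, Mras, a Ras-family GTPase (log2 fold change -0.60 ± 0.11; edgeR adjusted p = 0.0101), and Micall1, an endosomal relative of the plexin effectors called MICALs (-0.35 ± 0.07; edgeR adjusted p = 0.0225), and none rose. Micall1 did not pass without anti-Ang2 3 or IgG 2, 3 or 5 (edgeR adjusted p 0.0552 to 0.0738). The actin-severing effector Cfl1 was at 940 to 1191 CPM after anti-Ang2 and 924 to 1063 CPM after IgG, and the GTPase Rap1b at 408 to 487 CPM after anti-Ang2 and 388 to 476 CPM after IgG, and neither passed. In the fit that includes the melanoma sum, 2 of the 6 pathway genes that fell still passed, Nrp2 (log2 fold change -1.40) and Sema4d (-1.44), while Sema4c (-0.61), Kdr (-0.73), Mras (-0.68) and Micall1 (-0.34) did not. In that with the macrophage sum 0 passed, at log2 fold changes of -1.34 for Nrp2, -1.01 for Sema4d, -0.50 for Sema4c, -0.65 for Kdr, -0.48 for Mras and -0.39 for Micall1. Without anti-Ang2 1, 2 and 3, which leaves 2 anti-Ang2 libraries, Kdr (-0.81; edgeR adjusted p = 0.103), Mras (-0.72; 0.0662) and Micall1 (-0.41; 0.106) did not pass, and their log2 fold changes were no smaller than with all libraries.

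**Figure D4:**
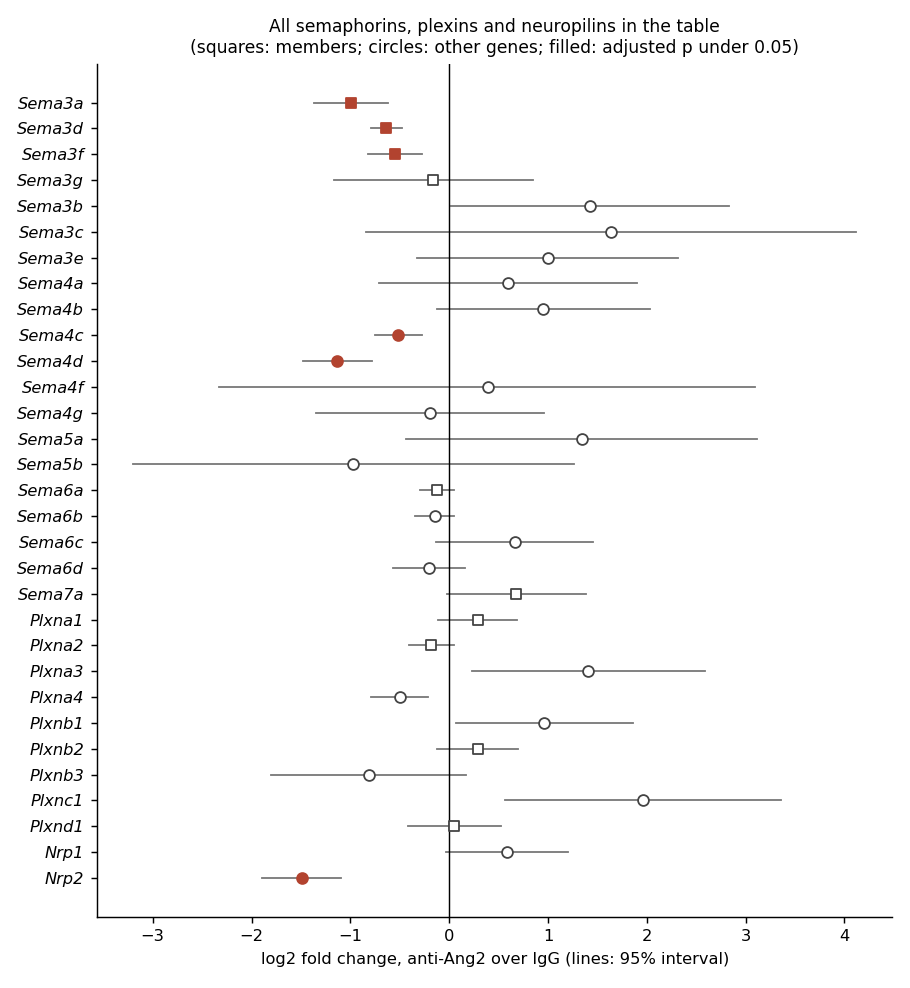
Log2 fold change (anti-Ang2 over IgG, horizontal axis) of every semaphorin, plexin and neuropilin in the table with its 95% interval; squares are the 10 members, circles the other genes, and filled symbols passed the test. Sema3a, Sema3d, Sema3f, Sema4c, Sema4d and Nrp2 passed, all below 0. The widest intervals are those of Sema4f, Sema3c and Sema5b, all of low level. Wide intervals also occur at higher levels, as in Sema3b (0.02 to 2.83).

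Several low-level relatives had positive fold changes that did not pass. Plxnc1, the receptor of Sema7a, was at 24.4, 20.4, 25.6, 4.92 and 7.96 CPM after anti-Ang2, against 3.16, 5.63, 0.51, 8.65 and 3.43 CPM after IgG (log2 fold change 1.96 ± 0.64; edgeR adjusted p = 0.118). Sema3e, the ligand of Plxnd1, was at 24.7, 16.2, 23, 9.55 and 3.73 CPM after anti-Ang2, against 3.11, 12.6, 1.8, 14.8 and 6.32 CPM after IgG (log2 fold change 0.997 ± 0.61; edgeR adjusted p = 0.438). In both genes the 3 highest libraries were anti-Ang2 1, 2 and 3, the same that had the highest melanoma sums (5594, 3984 and 4590 CPM). Without those 3 libraries the log2 fold change was 0.58 for Plxnc1 and -0.22 for Sema3e, and with the melanoma sum as a covariate it was 0.23 for Plxnc1 and -0.90 for Sema3e. Plxnc1 passed with all libraries in DESeq2 (adjusted p = 0.0105) and limma-voom (adjusted p = 0.0499), and in edgeR without anti-Ang2 4 and 5 (2.44; edgeR adjusted p = 0.0457), the anti-Ang2 libraries with the lowest melanoma sums.

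**Figure D5:**
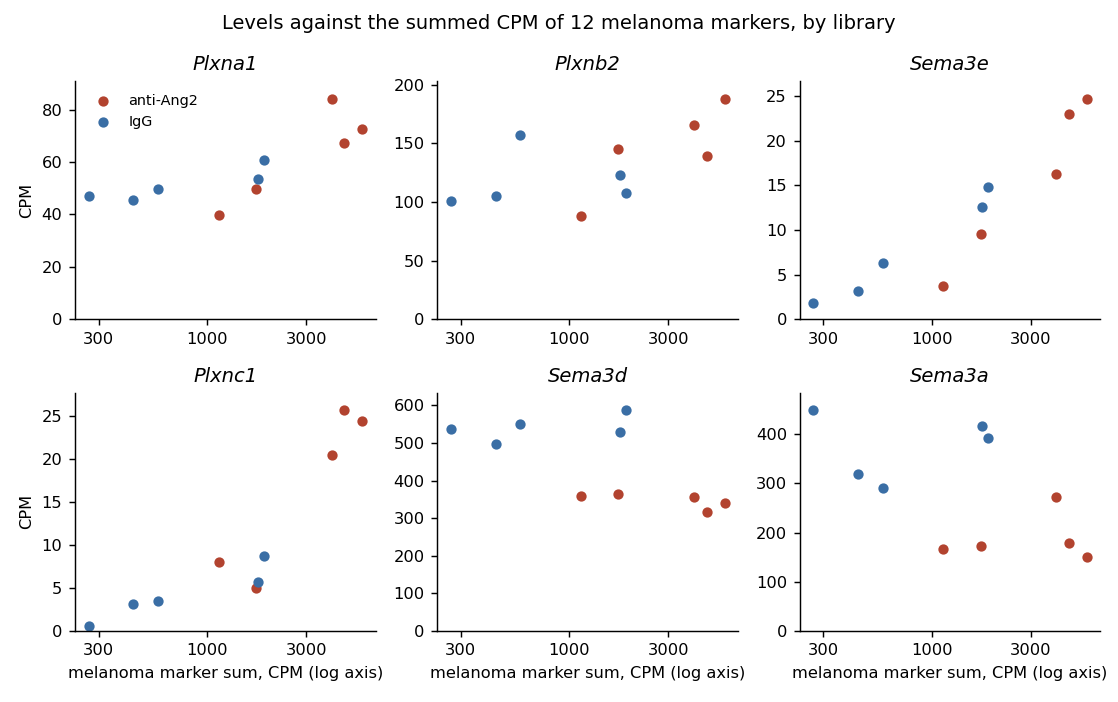
CPM of Plxna1, Plxnb2, Sema3e, Plxnc1, Sema3d and Sema3a (vertical axes, linear, from 0) against the summed CPM of 12 melanoma markers (horizontal axes, log scale), with 1 point per library. Anti-Ang2 1, 2 and 3 lie farthest right, at 3984 to 5594 CPM, and have the highest Plxna1, Sema3e and Plxnc1, whereas every anti-Ang2 library is below every IgG library for Sema3d and Sema3a.

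Plxnb1, the receptor of Sema4d, was at 9 to 35 CPM after anti-Ang2 and 7.08 to 20.2 CPM after IgG (log2 fold change 0.96 ± 0.41; edgeR adjusted p = 0.234), and it passed without anti-Ang2 4 and 5 (1.38; edgeR adjusted p = 0.044). With the melanoma sum as a covariate its log2 fold change was -0.14. Plxna4, a receptor of Sema6a and of class 3 ligands, was lower in 4 of 5 anti-Ang2 libraries than in every IgG library and did not pass in edgeR (149 CPM after anti-Ang2 and 210 CPM after IgG; log2 fold change -0.50 ± 0.13; edgeR adjusted p = 0.0625), although it did in DESeq2 (adjusted p = 0.011) and limma-voom (adjusted p = 0.0209). In edgeR it passed without anti-Ang2 5 alone (-0.57; edgeR adjusted p = 0.0368) and without 4 and 5 (-0.64; 0.0339).

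The authors' deposited table gives log2 fold changes of -0.93 for Sema3a, -0.61 for Sema3d and -0.48 for Sema3f, with adjusted p-values of 3.23e-06, 1.52e-17 and 0.00127. The deposited log2 fold changes were smaller in size than those of DESeq2 run here on the same counts. The gap was small for Sema3a (-0.98 in DESeq2 here) and wide for Sema3e (0.12 deposited, 1.01 here) and Plxnb1 (0.46 deposited, 0.98 here). Their sizes are therefore not on the same scale as those above. In the authors' deposited table no other member passed 0.05, whereas Plxna4, Plxnc1 and Flt4 did, at adjusted p-values of 0.0131, 0.0125 and 0.0436.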

How the data were processed

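RNA of lymphatic endothelial cells sorted from MT-ret melanomas was sequenced from 10 mice, 5 per treatment, 1 library each, and groups were taken from the treatment label. Per the labels' protocols, RNA came from the PicoPure kit and cDNA from SMART-Seq v4, a method without strand information. STAR, featureCounts, DESeq2 and mm10 are named in the submitters' processing notes, with versions not given in the sources used here. The single table holds raw counts per gene and library, as the authors deposited them, and every test used these counts. The deposited FPKM of the authors served only to compare levels per length. The deposited TPM columns sum to more than TPM can and were treated as a score that entered no result. The mean of scaled counts, a signal the authors deposited, was not used. Fold changes (log2) and p-values in the table are the authors' own, as deposited.

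Counts were tested with edgeR 4.0.16 in R 4.3.3 (TMM, filterByExpr with minimum count 10 and minimum total 15, quasi-likelihood F test, two-sided, treatment as the only factor), with Benjamini-Hochberg adjustment over 16240 genes and a threshold of 0.05. CPM are scaled by TMM, and standard errors and 95% intervals derive from the F test. Of 23510 rows, 8 were at 0 in every library, 29 symbols stood on 2 rows and 23435 IDs matched GENCODE M21 (mm10), from which coordinates were taken. Promoters are from a table of RefSeq windows (GRCm38.p6) in which 7 of the 10 genes were matched, and those of Sema3f, Plxna1 and Sema6a were not used here. Of the columns with values of a sample, 0 were left unassigned to a library. Libraries carry no molecular identifiers, and the series design states independent replicates, so the spread includes that between mice. No library pair agreed within sampling noise, by chi-square per degree of freedom between the counts of 2 libraries. This value was 55.9 to 64.1 among anti-Ang2 1, 2 and 3, and 90.7 between anti-Ang2 4 and 5. Between anti-Ang2 4 and anti-Ang2 1, 2 and 3 it was 109 to 116, against 102 to IgG 1. For anti-Ang2 5 it was 144 to 159, against 106 to IgG 1. The anti-Ang2 libraries were thus not equally close to each other. The value grows with the number of counts, which was lower in IgG 1 (40313230) than in anti-Ang2 1, 2 and 3 (50594990 to 51786044). Whether anti-Ang2 4 was closer to IgG 1 than to these 3 was not tested. The median log2 fold change over all genes was 0.01.

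The genes, the pathway lists and the marker lists were chosen with earlier results of these data known. Pathway genes were named if they passed the test, if they were a neuropilin or a known partner of a member (Sema3e, Plxna4 and Plxnc1), or if they were among the 2 of highest FPKM of their list. Alternatives were other scaling factors, no filter, DESeq2 1.42.0, limma-voom (limma 3.58.1) with quality weights, leaving out libraries, the number in the sample titles as a block, and sums of melanoma or macrophage markers as covariates. The main edgeR fit was tested on simulated counts with known changes in randomly drawn genes. It recovered 12.3% of changes of 1.5-fold, 57.8% of 2-fold and 70.5% of 4-fold, and 1.12% of its calls were false. Most changes of 1.5-fold were thus missed, and a gene that did not pass may still differ. Tables and plots were made in Python 3.11.15 (scipy 1.17.1, numpy 2.4.6, pandas 2.3.3, matplotlib 3.10.9).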

Additional observations from a re-analysis of the deposited data

Results flagged for a closer look

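In 3 of 52 groups of 5 libraries examined, 1 library stood far from the other 4 by the gap to its nearest neighbour as a share of the whole range (limit 0.71), and chance flags about 1 in 20 groups. Sema3a was at 271.6 CPM in anti-Ang2 2, against 179 CPM in the next highest anti-Ang2 library (gap 0.757 of the range). Flt4 was at 3282 CPM in the same library, against 2310 CPM in the next (0.751). Plxnb1, the receptor of Sema4d, was at 20.18 CPM in IgG 4, against 9.295 CPM in the next IgG library (0.831).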

How the results depend on the processing

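The log2 fold changes of Sema3a, Sema3d and Sema3f were negative under all 21 alternatives, and the calls were lost in 3, 1 and 10 of them. Over the members, 1 gene was higher without anti-Ang2 4 and 5. Lower members numbered 1 with the melanoma covariate, 0 with the macrophage covariate and 1 with that sum without Cd14, and 2 to 3 when single libraries were left out. Among the 67 pathway genes, 2 were higher in DESeq2, 2 in limma-voom and 3 without anti-Ang2 4 and 5 (0 to 1 with single libraries left out), and 11 were lower in DESeq2, 2 with the melanoma covariate, 0 with the macrophage covariate and 2 with that sum without Cd14 (4 to 9 with single libraries left out). Of all genes, 217 were higher, and 810 in DESeq2, 670 in limma-voom, 24 with the melanoma covariate, 2 with the macrophage covariate, 50 with that sum without Cd14, 55 without anti-Ang2 1, 2 and 3, 531 without 4 and 5, and 82 to 326 with single libraries left out. Lower genes numbered 454, and 880 in DESeq2, 780 in limma-voom, 91 with the melanoma covariate, 14 with the macrophage covariate, 173 with that sum without Cd14, 178 without anti-Ang2 1, 2 and 3, and 259 to 468 with single libraries left out. The cause was not tested.

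The title numbers did not pair the libraries (correlations of deviations -0.125 to 0.113; 1 of 5 numbers correlated best with its own). With them as a replicate block, 82 genes were higher and 268 lower, and Sema3f (log2 fold change -0.56; edgeR adjusted p = 0.0612), Kdr (-0.79; 0.0627) and Micall1 (-0.35; 0.0891) did not pass.

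Signs that turned all belong to log2 fold changes that did not pass. With the melanoma covariate these were Plxna1 (-0.19), Plxnb2 (-0.03), Plxnd1 (-0.32), Cfl1 (-0.00), Plxnb1 (-0.14) and Sema3e (-0.90). With the macrophage covariate they were Sema3g (0.12), Plxna2 (0.05), Plxnd1 (-0.26) and Sema6b (0.03), and without Cd14 in the sum Plxnd1 (-0.14). Without anti-Ang2 1, 2 and 3 they were Sema3g (0.04), Plxna1 (-0.21), Plxnb2 (-0.03), Plxnd1 (-0.27), Cfl1 (-0.06), Plxnb1 (-0.10) and Sema3e (-0.22), and without 4 and 5 Rap1b (-0.04). With the block they were Sema3g (0.02) and Plxnd1 (-0.01), and with single libraries left out Sema3g (-0.43 to 0.08) and Plxnd1 (-0.06 to 0.22).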
